A study of Mus musculus with 7 samples.

Results

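The RNA levels of splicing factors and RNA-binding proteins were compared between wild-type (WT) and *Mybpc2* knockout (C2-/-) tibialis anterior (TA) muscle, a fast-twitch muscle of the lower leg. The genes were taken by symbol alone, as all genes whose names start with Srsf, Hnrnp, Rbm and a digit, Sf3a, Sf3b, Snrp, Prpf, Celf, Mbnl or Rbfox. This gave 102 genes of the 12239 measured, of which 33 (Sf3a, Sf3b, Snrp and Prpf) were counted as core spliceosome and 69 (Srsf, Hnrnp, Rbm, Celf, Mbnl and Rbfox) as splicing regulators. All animals were male FVBN mice aged 5 to 6 months. The 4 WT animals carried the intact gene, and the 3 C2-/- animals carried an allele in which a Neo cassette between LoxP sites stands in for exons 2 to 22 of *Mybpc2*. This gene encodes the fast skeletal form of myosin binding protein C, and the allele is present in all cells of the animal, not in muscle fibres alone. The labels give 3 C2-/- libraries, although the design text of the series counts 4 animals in each group.

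The spliceosome removes introns from pre-mRNA. It is built from small nuclear RNAs that each carry a ring of Sm proteins, together with particle-specific proteins such as the SF3A and SF3B complexes and the PRPF factors. Regulators then decide which exons are kept. SR proteins (SRSF) mostly promote the use of an exon and hnRNPs often repress it, and in skeletal muscle the MBNL, CELF and RBFOX families set the adult splicing pattern of sarcomere and calcium-handling genes, with loss of MBNL activity being the known basis of mis-splicing in myotonic dystrophy. RNA levels of these factors do not show whether any exon was spliced differently, which was not measured here.

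Values are log2 CPM, the log2 of the reads of a gene per 1e6 reads after TMM scaling between libraries, and each change is the C2-/- mean less the WT mean in log2, given ± the SE (standard error) that limma estimated. A gene was counted as risen or fallen with an adjusted p under 0.05 (limma, Benjamini-Hochberg over all 12239 genes) and a fold change above 1.5. The libraries held 14929214 to 15464499 reads in WT replicates 1 to 3, only 4683853 in WT replicate 4, and 2613277 to 4917936 in C2-/-. *Mybpc2* stood at 12.41 to 12.85 log2 CPM in the WT libraries and at -0.47 to 1.67 in the C2-/- libraries, matching the labels. WT replicate 4 stood apart, with Pearson's r across genes of 0.917 to 0.93 to the other WT libraries against 0.984 to 0.988 among those, and it was near the C2-/- libraries in depth. Fast muscle markers were high in every library, but 5 of 9 fell and their summed level was 192300 to 224300 CPM in WT against 101300 to 121800 in C2-/-. All 4 fibro-adipogenic markers rose (339 to 521 CPM summed in WT, 1249 to 1425 in C2-/-), as did 2 of 5 macrophage markers (19.5 to 36.6 against 47.3 to 69.3). Of 6 endothelial markers 2 fell, of 3 satellite cell markers 1 rose (*Pax7* was at 0 reads in C2-/- replicate 3), and 1 fell among 3 Schwann cell, 3 smooth muscle and 1 erythroid markers each, while neither of 2 adipocyte markers passed the test. Over all 36 markers measured 7 rose and 10 fell, or 47.2%, near the 45.2% of all genes that passed. After the correction for GC content described below, 12.3% of all genes rose and 8.33% fell. Among the markers, 1 fast muscle marker then rose and 2 fell (median change 0.15, against -0.92 before), 2 fibro-adipogenic markers and 1 macrophage, adipocyte and smooth muscle marker each rose, and no other marker passed. The part of these shifts in the values below was not tested, and in bulk muscle fewer cells of a type cannot be told apart from less RNA per cell.

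Of the 102 genes, 34 rose, 17 fell and 51 did not pass the test. The share that passed was 50%, against 45.2% of all genes. By direction, 33.3% of these genes were higher and 16.7% lower, against a background of 20.2% higher and 25% lower. The median log2 change was 0.33 here and -0.14 over all genes. In 39 genes every C2-/- value lay above every WT value and in 19 below, and the groups overlapped in the other 44. Over all genes the groups did not overlap in 49.3% (22.6% with C2-/- higher and 26.7% with C2-/- lower). With limma's voom on the reads recovered from the table, 38 genes rose and 20 fell, against 22.6% and 26.5% of all genes (49.1% in either direction). Measured against WT replicate 4 alone, the mean of the C2-/- libraries lay on the side of the call in 50 of the 51 genes, the exception being *Prpf38b*. In 15 of the 51, however, WT replicate 4 was closer to the C2-/- average than to its own group without it.

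The change of these genes moved with the base composition of their transcripts. GC content is the percentage of G and C bases in 1 transcript per gene, and Spearman's rho between it and the log2 change was -0.68 over the 102 genes (a description, since genes share libraries), close to the -0.68 over 12175 genes with a known transcript. Below 42% GC, 13 of 20 members rose and 0 fell, with a median change of 0.75. Between 42% and 46%, 13 of 29 rose and 0 fell. Between 46% and 50%, 7 of 24 rose and 2 fell, and above 50%, 1 of 29 rose and 15 fell, with a median of -0.95. Over all genes in the same bands, 62.9%, 40.5%, 19.8% and 4.8% rose, 0.862%, 1.8%, 9.49% and 44.2% fell, and the medians were 1.10, 0.69, 0.18 and -0.97. GC content accounted for 33.6% to 37.8% of the variance of each C2-/- library around the mean of WT replicates 1 to 3, the figure for WT replicate 4 being 9.51%. The members were poorer in GC than the table as a whole, with a median of 46.4% against 50.2%. After each library's dependence on GC content was levelled, 14 members rose and 9 fell, against 12.3% and 8.33% of all genes (20.6% together), and the members' median change was -0.04. By band, from the lowest GC content to the highest, their median was then -0.37, -0.0015, -0.045 and 0.21. Of the 51 calls, 13 were kept in the same direction and 0 turned, and 10 further genes passed. Values after this levelling are given below as GC-corrected changes. Whether the dependence on GC content arose in the libraries or in the muscle was not tested.

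**Figure D1:**
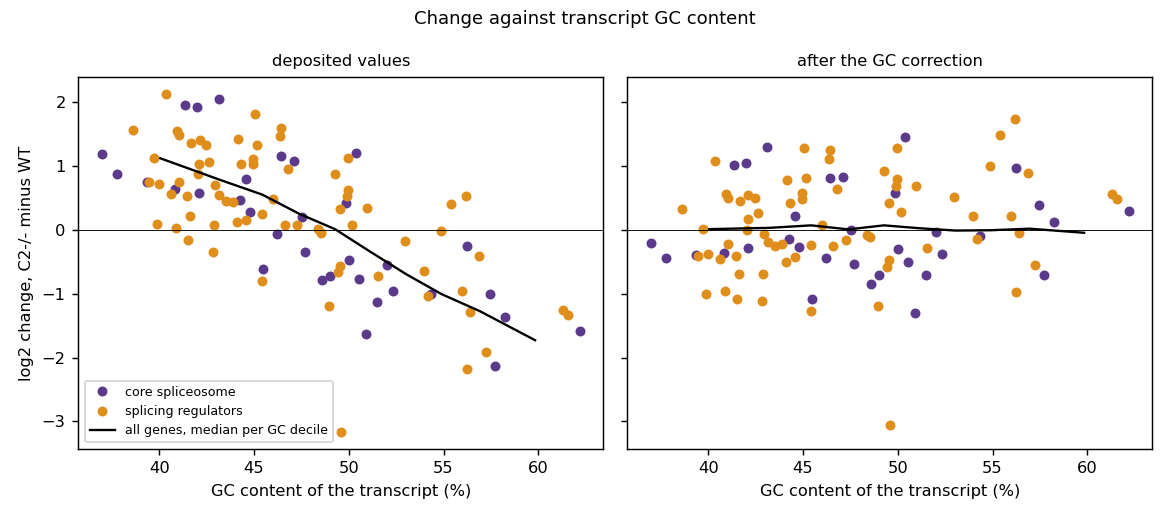
Log2 change (C2-/- minus WT, vertical axis) against the GC content of the transcript in percent (horizontal axis) for the 33 core and 69 regulator genes, with the median of all genes in each decile of GC content as a line. In the deposited values (left) the members follow the line, from 13 of 20 risen below 42% GC (62.9% of all genes there) to 15 of 29 fallen above 50% (44.2% of all genes there), and after the GC correction (right) the line is level.

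Paralogs encode similar proteins with different bases. The 3 pairs described here were chosen after their values were seen, because one paralog rose while the other fell. Their coding sequences are shown over the most similar in-frame stretch of 90 bases, with capitals for the bases that differ between the paralogs. The transcripts are those of GENCODE M21 and the gene positions are on GRCm38. *Rbfox1* (chr16:5884793-7412480, plus strand, coding bases 475 to 564) and *Rbfox2* (chr15:77078990-77308434, minus strand, 667 to 756) encode RNA-binding proteins that recognise the same motif. *Hnrnpl* (chr7:28808546-28822268, plus strand, 331 to 420) and *Hnrnpll* (chr17:80029487-80062268, minus strand, 409 to 498) encode hnRNPs that bind CA-rich RNA. *Snrpa* (chr7:27187006-27196271, minus strand, 661 to 750) and *Snrpb2* (chr2:143063069-143072052, plus strand, 475 to 564) encode proteins that bind stem-loops of the U1 and U2 RNAs.
Rbfox1: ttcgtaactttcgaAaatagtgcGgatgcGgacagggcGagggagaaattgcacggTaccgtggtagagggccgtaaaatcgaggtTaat
Rbfox2: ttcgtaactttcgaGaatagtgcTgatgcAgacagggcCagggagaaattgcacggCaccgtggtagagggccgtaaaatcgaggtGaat
Hnrnpl: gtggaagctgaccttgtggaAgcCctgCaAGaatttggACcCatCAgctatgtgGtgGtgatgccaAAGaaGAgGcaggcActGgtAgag
Hnrnpll: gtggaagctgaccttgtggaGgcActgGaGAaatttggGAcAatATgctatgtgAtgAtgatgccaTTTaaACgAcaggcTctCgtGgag
Snrpa: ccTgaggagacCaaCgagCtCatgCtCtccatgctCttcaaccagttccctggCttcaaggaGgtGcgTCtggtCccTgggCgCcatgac
Snrpb2: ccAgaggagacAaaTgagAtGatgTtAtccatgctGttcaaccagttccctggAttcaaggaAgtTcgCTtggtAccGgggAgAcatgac

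The *Rbfox1* and *Rbfox2* stretches differed at 6 bases, all at the third codon position, of which 3 were G or C in *Rbfox1* and 4 in *Rbfox2*. *Snrpa* and *Snrpb2* differed at 17 bases, 13 of them at the third position, and 14 of the 17 were G or C in *Snrpa* against 4 in *Snrpb2*. For *Hnrnpl* and *Hnrnpll*, 12 and 7 of 21 differing bases were G or C. Over whole transcripts the GC content was 44.95% and 51.5% for *Rbfox1* and *Rbfox2*, 54.2% and 45.2% for *Hnrnpl* and *Hnrnpll*, and 57.4% and 39.3% for *Snrpa* and *Snrpb2*.

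Among the MBNL, CELF and RBFOX genes, the muscle splicing regulators, 4 of 6 rose and 1 fell, where 20.2% of all genes rose and 25% fell. Their transcripts had a median GC content of 43.5%, and of all genes between 42% and 46% GC 40.5% rose. *Mbnl2* had the largest rise of all 102 genes. It stood at 7.94, 7.94, 7.84 and 9.30 log2 CPM in WT replicates 1 to 4 and at 10.12, 10.58 and 10.43 in C2-/-. The groups did not overlap, but WT replicate 4 lay between the other WT libraries and the C2-/- libraries. The log2 change was 2.12 ± 0.33 (SE), or 4.35-fold (limma adjusted p = 0.00108), and 1.07 after GC correction (adjusted p = 0.0177). *Mbnl1*, the main muscleblind protein of adult muscle, stood at 8.81, 9.003, 8.71 and 8.79 in WT and at 9.87, 10.02 and 9.95 in C2-/-. All WT libraries, replicate 4 included, lay together and below the C2-/- libraries, with a log2 change of 1.12 ± 0.15 (adjusted p = 0.000539). This transcript is 39.7% GC and its GC-corrected change was 0.01 (adjusted p = 0.975).

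*Rbfox1* stood at 8.44, 8.60, 8.38 and 9.30 in WT and at 9.62, 9.78 and 9.96 in C2-/-, a log2 change of 1.11 ± 0.23 (adjusted p = 0.0037). *Rbfox2* moved the other way, from 6.45, 6.66, 6.85 and 6.22 in WT to 6.01, 5.74 and 5.71 in C2-/-, a change of -0.72 ± 0.19 (adjusted p = 0.0124). Under median centring this was -0.56 (adjusted p = 0.0308), below the 1.5-fold threshold. Neither gene passed the test after GC correction (0.57 with adjusted p = 0.0568, and -0.29 with adjusted p = 0.222), although each kept its direction. *Rbfox1* passed when transcript length was corrected for as well (0.65, adjusted p = 0.0427) and with the replicate block and the GC correction (0.74, adjusted p = 0.00393). *Celf2* rose, from 6.48, 6.32, 6.16 and 6.41 to 7.45, 7.60 and 7.08, by 1.03 ± 0.17 (adjusted p = 0.00159, GC-corrected change 0.17). *Celf1*, which opposes MBNL1 on several muscle exons, did not pass the test. Its values were 6.55, 6.74, 6.59 and 6.63 in WT and 6.71, 6.71 and 6.69 in C2-/-, and the groups overlapped, with a change of 0.07 ± 0.14 (adjusted p = 0.687) that was -0.09 under quantile normalization.

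**Figure D2:**
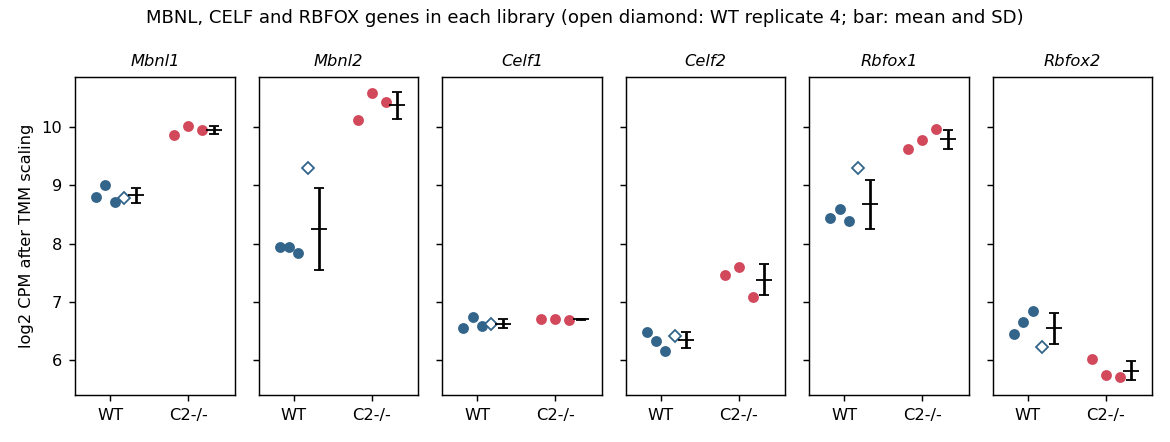
Log2 CPM after TMM scaling (vertical axis) of *Mbnl1*, *Mbnl2*, *Celf1*, *Celf2*, *Rbfox1* and *Rbfox2* in each WT (blue, n = 4) and C2-/- (red, n = 3) library, with bars for the mean and SD. The open diamond of WT replicate 4 lies above the other WT libraries for *Mbnl2* (9.30) and *Rbfox1* (9.30), and the C2-/- libraries lie above all WT libraries for 4 genes and below them for *Rbfox2*.

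Of the 10 SR protein genes 3 rose (30%, against 20.2% of all genes) and 0 fell (against 25%), so that 30% passed against 45.2% of all genes. *Srsf11*, a regulator found in nuclear speckles, stood at 5.87, 5.97, 5.82 and 6.58 in WT and at 7.66, 8.07 and 7.87 in C2-/-. Its log2 change of 1.80 ± 0.21 (3.49-fold, adjusted p = 0.000375) was 1.28 after GC correction (adjusted p = 0.00247). *Srsf2*, also known as SC35 and the classical marker of nuclear speckles, stood at 6.47, 6.50, 6.41 and 7.32 in WT and at 7.49, 7.83 and 8.07 in C2-/-. The lowest C2-/- library was 7.49 against 7.32 in WT replicate 4, so the groups came close without overlapping. Its log2 change was 1.11 ± 0.24 (adjusted p = 0.00518) and 1.28 after GC correction (adjusted p = 0.00954), but 39.4% of its exonic bases overlap *Mettl23* or *Mfsd11* on the other strand, and the use of strand in counting was not given in the sources used here. *Srsf3* also rose (0.71 ± 0.21, GC-corrected -0.37). *Srsf5*, the SR gene with the highest WT level per kilobase of transcript, changed by 0.15 ± 0.15 (adjusted p = 0.414), a difference that was -0.05 under quantile normalization. *Srsf6* and *Srsf9* passed the test with the GC correction and not without it, in opposite directions (-1.12 with adjusted p = 0.0052, and 1.73 with adjusted p = 0.0029).

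Of the 20 hnRNP genes 8 rose (40%, against 20.2% of all genes) and 2 fell (10%, against 25%). The 50% that passed in either direction was near the 45.2% of all genes. *Hnrnpdl*, which is mutated in a limb-girdle muscular dystrophy, stood at 6.63, 6.62, 6.52 and 7.29 in WT and at 8.33, 8.59 and 8.14 in C2-/-. The rise was 1.59 ± 0.21 (3.01-fold, adjusted p = 0.000583), and 1.24 after GC correction (adjusted p = 0.00364). Its paralog *Hnrnpd*, the mRNA-decay factor AUF1, rose by 1.35 ± 0.19 (GC-corrected 0.44). *Hnrnpr* rose by 1.47 ± 0.32 (adjusted p = 0.00522), although WT replicate 4 (6.08) was nearer to the C2-/- libraries (6.42 to 6.94) than to the other WT libraries (4.67 to 4.92), and its GC-corrected change was 0.50 (adjusted p = 0.203). The *Hnrnpr* transcript used for the correction has 21452 bases and 41.0% GC, with a coding sequence of 47.9% GC. *Hnrnpm* and *Hnrnph3* rose and passed the test after GC correction as well (0.92 and 0.78). *Hnrnpl* fell from 6.24, 6.38, 6.28 and 6.12 in WT to 5.49, 5.57 and 4.59 in C2-/- (-1.04 ± 0.24, adjusted p = 0.00706), with a GC-corrected change of -0.15. *Hnrnpf* fell before and after correction (-1.20 and -1.19), with WT replicate 4 (4.12) below C2-/- replicate 2 (4.24), so the groups overlapped. Of its transcript, 67.3% of the 50-base stretches occur in other genes, so its reads could be split between copies. *Hnrnpa2b1*, the hnRNP with the highest WT level per kilobase, did not pass the test (0.43 ± 0.20, adjusted p = 0.0986, GC-corrected -0.23). It passed under median centring (0.59, adjusted p = 0.0365) and without C2-/- replicate 3 (0.61, adjusted p = 0.0392), whereas its change was 0.27 without C2-/- replicate 2. *Hnrnpa1* was counted at 1 to 37 reads in the C2-/- libraries, and 46.4% of its transcript occurs in other genes.

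Of the 33 RBM genes 8 rose (24.2%, against 20.2% of all genes) and 5 fell (15.2% against 25%). After GC correction 1 call was kept, that of *Rbm3os*. It is a non-coding RNA, counted among the RBM genes and the regulators by its symbol alone. The RBM family is held together by a name for an RNA-binding motif and includes spliceosome components, exon-junction proteins and tissue-specific regulators. *Rbm41* (2.94, 3.09, 2.89 and 2.59 in WT against 4.06, 4.78 and 4.46 in C2-/-) rose by 1.56 ± 0.30 (adjusted p = 0.00265, GC-corrected 0.33). *Rbm12b2* rose by 1.55 ± 0.43 (adjusted p = 0.0148, GC-corrected 0.56), but shares 54.1% of its transcript with other genes, mainly its copy *Rbm12b1*. *Rbm25*, a splicing regulator with an RE-rich stretch, rose by 1.40 ± 0.21 (GC-corrected 0.54). *Rbm14*, a paraspeckle protein, fell from 2.997, 2.73, 3.10 and 2.29 in WT to 0.63, -0.10 and 1.25 in C2-/-, where it had 4, 2 and 11 reads (-2.18 ± 0.48, adjusted p = 0.00516, GC-corrected -0.97).

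The lowest log2 change among the members was that of *Rbm3os*, a non-coding RNA antisense to *Rbm3*, which encodes a cold-induced RNA-binding protein. *Rbm3os* stood at 2.75, 3.74, 2.86 and 2.15 in WT and at 0.92, -2.42 and 0.63 in C2-/-, where it had 5, 0 and 7 reads. Its change was -3.16 ± 0.80 (adjusted p = 0.0102), and -3.06 after GC correction (adjusted p = 0.0214). Without C2-/- replicate 2, the library at 0 reads, the change was -2.10 (adjusted p = 0.00943), and without C2-/- replicate 1 it was -3.77. *Rbm3* itself changed by -0.17 ± 0.37 (adjusted p = 0.726). On the annotation 11.2% of the exonic bases of *Rbm3os* overlap *Rbm3* on the other strand, and without knowledge of strand reads there cannot be told apart. Among the RBM genes with a known role in muscle, *Rbm24*, a regulator of muscle-specific exons and the RBM gene with the highest WT level per kilobase, stood at 7.88, 7.91, 7.68 and 8.09 in WT and at 7.87, 7.53 and 8.47 in C2-/-, and the groups overlapped (0.07 ± 0.22, adjusted p = 0.81). This value was -0.16 under quantile normalization and -0.19 without C2-/- replicate 3. *Rbm20*, the regulator of titin splicing, changed by -0.01 ± 0.18 on the deposited values (adjusted p = 0.951) and by 0.99 after GC correction (adjusted p = 0.0153). *Rbm38* fell by 1.25 on the log2 scale (SE 0.15, adjusted p = 0.000409) with a transcript of 61.3% GC, and its GC-corrected change was 0.56 (adjusted p = 0.122).

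Of the 33 core spliceosome genes 11 rose and 9 fell, with a median log2 change of -0.06, and of the 69 regulators 23 rose and 8 fell, with a median of 0.43. The share that rose was 33.3% in both, against 20.2% of all genes, while 27.3% of the core genes and 11.6% of the regulators fell, against 25% of all genes. The share of core genes that fell was thus near that of all genes. The median of the core genes lay 0.50 below that of the regulators. Taken library by library relative to the WT mean, this difference was between -0.02 and 0.07 in the WT libraries, replicate 4 included, and between -0.54 and -0.45 in the C2-/- libraries. The core transcripts were slightly richer in GC (median 47.7% against 45.4%), and after GC correction the difference was -0.28 with 3 risen and 3 fallen core genes against 11 and 6 regulators, where 12.3% of all genes rose and 8.33% fell.

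**Figure D3:**
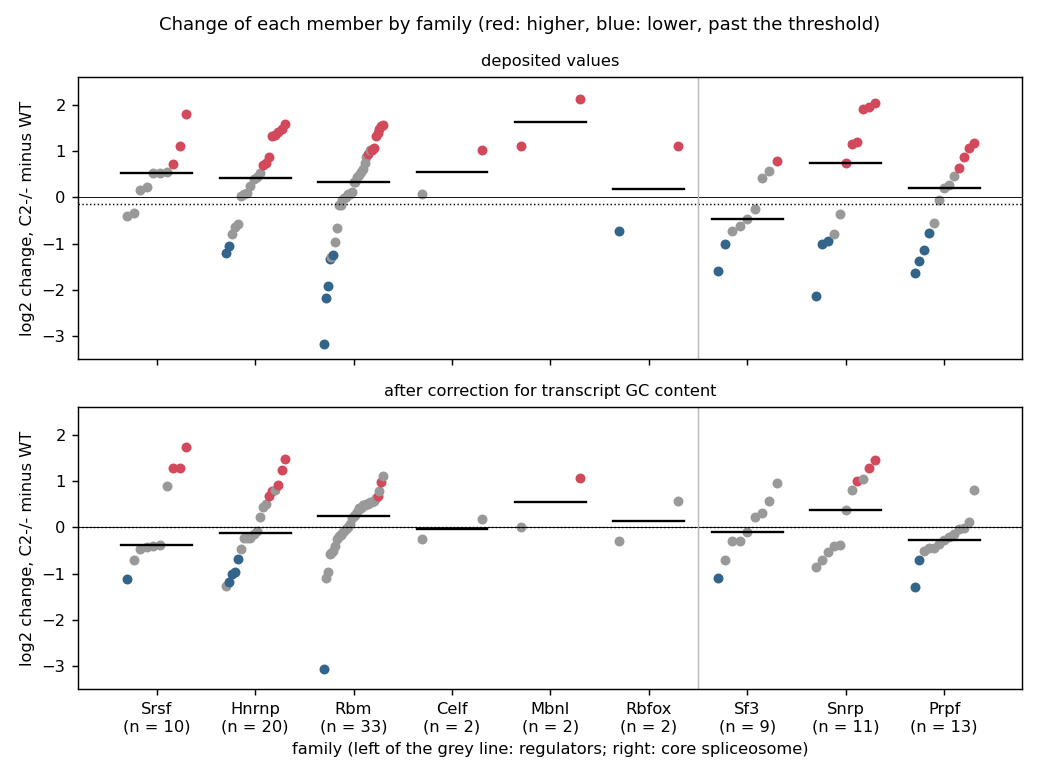
Log2 change (C2-/- minus WT, vertical axis) of each member by family, on deposited values (top) and after GC correction (bottom), with red for genes that rose, blue for genes that fell, grey for the rest, black bars for family medians and a dotted line at the median of all genes. On deposited values 34 genes are red and 17 blue, and after correction 14 and 9.

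Within the core, the Sm ring genes were divided. The ring is built from 7 proteins in equal number, and of their genes 4 rose (*Snrpd1*, *Snrpe*, *Snrpf* and *Snrpg*), 2 fell (*Snrpb* and *Snrpd2*) and *Snrpd3* did not pass the test. These shares, 57.1% higher and 28.6% lower, stand against 20.2% and 25% of all genes. *Snrpd1* stood at 2.95, 3.16, 2.92 and 3.52 in WT and at 4.94, 5.40 and 5.18 in C2-/-, a rise of 2.04 ± 0.26 (4.1-fold, adjusted p = 0.000539). *Snrpf* stood at 2.95, 2.80, 2.59 and 3.83 in WT and at 5.18, 4.95 and 4.86 in C2-/-, a rise of 1.95 ± 0.33 (adjusted p = 0.00157). All C2-/- libraries lay above all WT libraries for both. The rises were 1.29 and 1.01 after GC correction (adjusted p = 0.00561 and 0.0315), but 89.5% of the *Snrpf* transcript is shared with other annotated genes, chiefly *Ccdc38* on the other strand.

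*Snrpe* rose by 1.92 ± 0.50 (adjusted p = 0.0115), although WT replicate 4 (5.43) overlapped the C2-/- libraries (5.35, 5.98 and 5.93) and the other WT libraries stood at 3.52, 3.09 and 3.29. *Snrpg* rose by 1.16 ± 0.30 (adjusted p = 0.0114). Neither passed after GC correction, at 1.05 for *Snrpe* (adjusted p = 0.115) and 0.81 for *Snrpg* (adjusted p = 0.0753). In the other direction, *Snrpb*, which encodes the SmB proteins, fell from 6.61, 6.76, 6.80 and 5.47 in WT to 4.52, 4.03 and 4.30 in C2-/-. This was a log2 change of -2.13 ± 0.32 (4.37-fold lower, adjusted p = 0.000975), with WT replicate 4 again between the others and the C2-/- libraries. *Snrpd2* fell from a range of 4.20 to 4.501 in WT to 2.94 to 3.76 in C2-/- (-0.95 ± 0.28, adjusted p = 0.0179). The risen ring genes had transcripts of 41.3% to 46.4% GC and the fallen ones 52.3% (*Snrpd2*) and 57.7% (*Snrpb*). The GC-corrected change was -0.71 for *Snrpb* (adjusted p = 0.0524) and -0.38 for *Snrpd2* (adjusted p = 0.337). After correction 2 ring genes were thus higher and 0 lower, where 12.3% of all genes were higher and 8.33% lower.

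**Figure D4:**
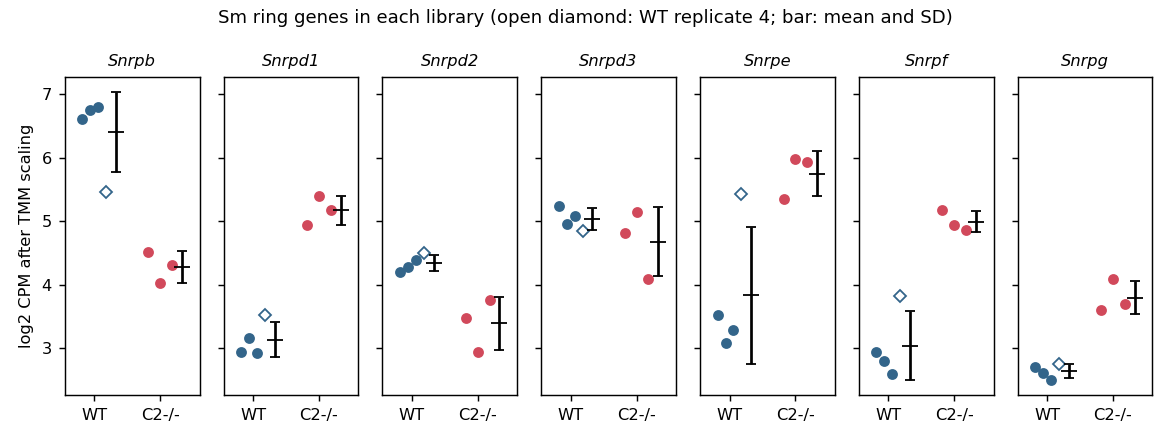
Log2 CPM after TMM scaling (vertical axis) of the 7 Sm ring genes in each WT (blue, n = 4) and C2-/- (red, n = 3) library, with bars for the mean and SD and an open diamond for WT replicate 4. The C2-/- libraries lie above all WT libraries for *Snrpd1*, *Snrpf* and *Snrpg*, below them for *Snrpb* and *Snrpd2*, and overlap WT for *Snrpd3* and *Snrpe*.

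Among the proteins specific to the U1 and U2 particles, *Snrpa* fell and *Snrpb2* and *Snrpa1* rose. *Snrpa* stood at 4.65, 4.48, 4.58 and 4.74 in WT and at 3.57, 3.69 and 3.57 in C2-/- (-1.002 ± 0.22, adjusted p = 0.00535), and its paralog *Snrpb2* at 4.04, 4.22, 3.86 and 4.46 against 4.88, 4.93 and 4.87 (0.75 ± 0.23, adjusted p = 0.022). After GC correction both turned in sign without passing the test (0.38 and -0.40), and 31.1% of the 50-base stretches of *Snrpa* occur in other genes. *Snrpa1*, the partner of the *Snrpb2* protein on the U2 RNA, rose by 1.21 ± 0.28 (adjusted p = 0.00688) and by 1.45 after GC correction (adjusted p = 0.00981). *Snrpc*, a U1 protein, was not past the threshold (-0.79 ± 0.35, adjusted p = 0.0836).

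Of the 9 SF3A and SF3B genes, whose products hold the U2 particle on the branch point, 1 rose and 2 fell, so that 33.3% passed against 45.2% of all genes. *Sf3a2* fell from 4.54, 4.74, 4.88 and 5.31 in WT to 2.59, 3.07 and 4.20 in C2-/- (-1.58 ± 0.38, adjusted p = 0.00756). Its transcript is 62.2% GC, the highest of all members, and the GC-corrected change was 0.30 (adjusted p = 0.685). *Sf3b2* fell from between 6.42 and 6.78 to between 5.61 and 5.72 (-1.01 ± 0.16, adjusted p = 0.00127, GC-corrected -0.10). *Sf3b6*, the subunit that touches the branch point, rose by 0.79 ± 0.24 (adjusted p = 0.0211), a call that was lost when WT replicate 1, 2 or 3 or C2-/- replicate 3 was left out (changes of 0.63 to 0.95 over the 7 libraries left out in turn). *Sf3b1*, the largest subunit, had C2-/- values of 7.51 to 7.69 above the WT values of 6.86 to 7.41, but its change of 0.57 ± 0.17 stayed under the 1.5-fold threshold (adjusted p = 0.0214).

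Of the 13 PRPF genes 4 rose and 4 fell, 30.8% in each direction against 20.2% and 25% of all genes. *Prpf8* encodes the large protein at the catalytic centre of the spliceosome. It stood at 7.61, 7.67, 7.66 and 7.56 in WT and at 6.68, 6.22 and 6.56 in C2-/-. The WT libraries, replicate 4 included, lay close together and above all C2-/- libraries, with a change of -1.14 ± 0.16 (2.2-fold lower, adjusted p = 0.000696) and -0.72 after GC correction (adjusted p = 0.00659). *Prpf31*, a component of the U4/U6 particle, fell from 3.93, 4.15, 4.15 and 3.43 to 3.29, 1.49 and 2.09, with 28, 7 and 20 reads in C2-/- (-1.63 ± 0.44, adjusted p = 0.0134, GC-corrected -1.30 with adjusted p = 0.0428), a call that was lost under the GC and length correction (-1.20, adjusted p = 0.052). *Prpf19*, the ubiquitin ligase of the spliceosome and the PRPF gene with the highest WT level per kilobase, fell by 0.77 on the log2 scale (SE 0.17, adjusted p = 0.00569, GC-corrected -0.50). *Prpf40b* fell from 4.71, 4.93, 4.90 and 4.40 to 3.39, 3.14 and 3.57 (-1.36 ± 0.25, adjusted p = 0.00231), with a transcript of 58.3% GC. *Prpf39*, a U1-associated factor with the lowest GC content of all members (37.0%), rose by 1.18 ± 0.25 (adjusted p = 0.0042). The GC-corrected changes of *Prpf40b* and *Prpf39* were 0.12 and -0.22, each opposite in sign to the deposited one and neither past the threshold.

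A RefSeq promoter sequence (GRCm38.p6) was matched for 86 of the 102 genes. The start site can lie inside the annotated gene, as it does for *Mbnl1* and *Srsf2*, so the bases before it are not always upstream of the whole gene. Spearman's rho between the GC content of the whole promoter sequence, which continues for 50 bases past the start site, and the log2 change was -0.01 over these 86 genes. The 250 bases before the start site are shown for *Prpf8* (chr11:75486527-75486776, plus strand), which fell with and without the GC correction and whose stretch ends at the base before the annotated gene. Capitals mark the CCAAT box on either strand.
Prpf8: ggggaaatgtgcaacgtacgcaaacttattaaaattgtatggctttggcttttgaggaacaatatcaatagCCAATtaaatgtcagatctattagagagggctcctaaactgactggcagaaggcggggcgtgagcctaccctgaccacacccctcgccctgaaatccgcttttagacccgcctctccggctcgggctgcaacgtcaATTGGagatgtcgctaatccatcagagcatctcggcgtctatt

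This stretch was 49.6% GC with 2 CCAAT boxes. Over the 250 bases before each start site, the GC box GGGCGG on either strand was found in 54.7% of the 86 promoters against 59.6% of the 9329 promoters of measured genes. The CCAAT box was found in 45.3% against 36.2%, the ETS core CCGGAAG in 24.4% against 13.8%, the E-box CAGCTG in 8.14% against 12%, and TATAAA in 11.6% against 6.46%. These matches of letters are a description and do not show binding.

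Splicing genes whose symbols the rule does not reach were counted in the same way. Of 121 such genes that were measured 34 rose and 21 fell (45.5%, close to the 45.2% of all genes). Among 42 further spliceosome components 14 rose and 10 fell, among 42 other RNA-binding regulators 14 rose and 7 fell, among 21 LSm and snRNP assembly genes 1 rose and 2 fell, among 8 SR protein kinases 3 rose and 1 fell, and among 8 exon junction complex genes 2 rose and 1 fell. *Sfpq*, a paraspeckle and splicing protein needed in long muscle genes, rose by 1.41 ± 0.17 (adjusted p = 0.000428) and by 1.56 after GC correction (adjusted p = 0.0012). The paralogs *Ptbp1* and *Ptbp2*, repressors of exons, moved apart, with changes of -1.49 ± 0.36 (adjusted p = 0.008) and 1.51 ± 0.23 (adjusted p = 0.00106). Their GC-corrected changes were -0.68 (adjusted p = 0.174) and 0.77 (adjusted p = 0.035). *Srpk3*, the muscle-specific SR protein kinase, fell by 1.49 on the log2 scale (SE 0.33, adjusted p = 0.0056, GC-corrected -0.53). These 4 genes were chosen after their values were seen. After GC correction 11 of the 121 genes were higher and 4 lower, smaller shares than the 12.3% and 8.33% of all genes.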

How the data were processed

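RNA sequencing of TA muscle was analysed in 4 WT and 3 C2-/- libraries, grouped by their titles. The authors aligned reads to GRCm38.p6 with HISAT, counted them per gene with featureCounts 1.5.2, applied TMM scaling in edgeR and deposited log2 values for 12239 genes. A second deposited table holds the authors' own fold change, p-value, adjusted p-value and scores for this contrast and was not used. How genes were filtered, multiply mapped reads treated and strand used is not given in the sources used here.

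The deposited log2 values were tested with limma 3.58.1 in R 4.3.3 (lmFit, eBayes with trend, genotype as the only term, two-sided), with Benjamini-Hochberg adjustment over all genes. To pass, a gene needed an adjusted p under 0.05 together with a 1.5-fold change (0.585 in log2). In all libraries 100% of values corresponded to whole reads plus 0.5 (within 0.01 reads), so reads were recovered and tested with voom as an alternative. A count of 3 reads corresponds to 0.195 to 1.12 CPM, a floor for counting error only. Every pair of libraries differed by more than counting error (chi-square per degree of freedom at least 9.12). Nothing in the labels says more than that the 7 libraries are separate samples, so p-values measure the spread between them.

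GC content came from 1 GENCODE M21 transcript per gene (12175 genes, 99.5%, 357 of them by earlier symbols). This was the longest protein-coding transcript, or the longest of any kind where there was none. The GC correction fitted the log2 values of every library with a natural spline (5 degrees of freedom) on GC content and put the average curve in its place. Named genes were all CELF, MBNL and RBFOX genes, up to 2 risen and 2 fallen genes per other family (the largest changes among those past the threshold whose groups did not overlap, averaging at least 1 in log2 in the higher group) and the gene of highest WT level per kilobase in each family. A gene that met this rule is not reported here. Other genes in the text were added after their values were seen. The members and lists were chosen with earlier results of these data known. The limma fit was tested on simulated data.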

Additional observations from a re-analysis of the deposited data

Results flagged for a closer look

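Dixon's criterion was applied to 31 groups of WT values. Chance at 1 in 20 would flag about 1.55 of 31 independent groups. These groups all come from the same 4 WT libraries, so that number is no measure here. In 6 of them 1 library lay far from the others, and in all 6 it was WT replicate 4. It stood at 9.30 log2 CPM for *Mbnl2* (the other WT libraries 7.84 to 7.94), 7.32 for *Srsf2* (6.41 to 6.50), 7.29 for *Hnrnpdl* (6.52 to 6.63), 9.05 for *Hnrnpa2b1* (8.54 to 8.60), 7.502 for *Prpf39* (6.48 to 6.64) and 5.47 for *Snrpb* (6.61 to 6.80). In each case it lay towards the C2-/- libraries. These 6 genes are among the named genes, many of which were chosen for large changes. Without WT replicate 4 the log2 changes of these genes, in the same order, were 2.47, 1.33, 1.76, 0.55, 1.41 and -2.44, and 40 members rose and 20 fell. The share of all genes without this library is not given here. WT replicate 4 is also the shallowest WT library (4683853 reads) and has the largest share of variance that moves with GC content among WT libraries (9.51%). What sets this library apart was not tested. Groups of 3 libraries were not tested in this way.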

How the results depend on the processing

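Setting by setting, the number of members that passed was 51 on the deposited values and stayed within 1.5 times of that (48 to 61) under quantile normalization, median centring, either filter on low values, 2 reads added before the log, thinning to the smallest library, voom, library quality weights and the replicate block, and 41 to 60 when each library was left out in turn. Median centring and quantile normalization moved the median of all genes from -0.14 to 0.02 and 0.05, and that of the members from 0.33 to 0.49 and 0.30. With the GC correction 23 members passed (14 higher, 9 lower), with the GC and length correction 24 (14 and 10), with the replicate block and the GC correction 32 (21 and 11), and at an adjusted p under 0.01 32 (20 higher). For core genes the same 3 corrections gave 3, 2 and 5 higher and 3, 4 and 4 lower, and the stricter p gave 4 higher. For regulators the first 2 corrections gave 11 and 12 higher, and 5 were lower both at the stricter p and among genes averaging at least 3 in log2. Of the other splicing genes 15, 19 and 24 passed under the 3 corrections and 35 at the stricter p, against 55. Shares of all genes are given here only for the deposited values, voom and the GC correction. Counts under the other settings, and with a library left out, describe these genes alone and not beside all genes.

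The difference of the core median from the regulator median (-0.50) kept its sign throughout. It was -0.59 without the Rbm genes, -0.74 without the Prpf genes, -0.35 under quantile normalization, -0.54 among genes averaging at least 3 in log2, -0.45 with voom, -0.42 with library quality weights, -0.38 with the replicate block, -0.28 with the GC correction, -0.29 with the GC and length correction and -0.18 with the replicate block and the GC correction.

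Leaving out each library in turn gave ranges of 26 to 40 members higher and 15 to 20 lower, 8 to 12 core genes higher and 8 to 12 lower, 18 to 28 regulators higher and 7 to 10 lower, 40 to 66 other splicing genes past the threshold, and -0.57 to -0.38 for the difference of medians. *Rbm3os* (-3.16) ranged from -3.77 to -2.10. *Rbm24* (0.07) ranged from -0.19 without C2-/- replicate 3 to 0.28 without C2-/- replicate 2.

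Among the genes named by the rule above, the log2 change turned in sign for the following, in the order GC correction, GC and length correction, replicate block with GC correction: *Celf1* (-0.25, -0.26, -0.27), *Hnrnpa2b1* (-0.23, -0.32, -0.17), *Prpf39* (-0.22, -0.16, -0.082), *Prpf40b* (0.12, 0.22, 0.13), *Sf3a2* (0.30, 0.36, 0.60), *Snrpa* (0.38, 0.24, 0.53) and *Srsf5* (-0.43, -0.55, -0.42). *Sf3b2* (0.0046) and *Sf3b6* (-0.0042) turned with the GC and length correction, and *Mbnl1* (-0.094) with the replicate block and the GC correction. *Celf1* (-0.088), *Rbm24* (-0.16) and *Srsf5* (-0.053) turned under quantile normalization. Members outside the named genes turned as well, such as *Rbm38*, *Snrpb2* and *Srsf3* with the GC correction. Among the named genes, calls differed between the 3 corrections that include GC content for 5 genes. *Rbfox1* and *Snrpb* passed except with the GC correction, *Hnrnpr* passed with the replicate block and the GC correction alone (0.73, adjusted p = 0.017), and *Prpf31* and *Snrpf* passed except with the GC and length correction (*Snrpf* 0.70, adjusted p = 0.0871). The cause was not tested.

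The replicate numbers do not pair the samples. Deviations of same-numbered WT and C2-/- libraries from their group means correlated at 0.05, -0.06 and -0.05 for replicates 1 to 3, and not every sample correlated best with its own number. The replicate block left 58 members past the threshold and changed no call of a named gene. WT replicate 4 has no partner, so the fitted log2 changes under the block are those without that library, while the errors differ (60 members were past the threshold without it).

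The depth of the C2-/- libraries limits genes with few reads, such as *Rbm14* and *Rbm3os*.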

Other observations

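Besides *Rbm20*, *Srsf6* and *Srsf9*, 7 further members passed the test with the GC correction and not without it. *Hnrnpa0* (1.48, adjusted p = 0.0188), *Hnrnpab* (0.68) and *Rbm17* (0.68) were higher in C2-/-, and *Hnrnpa3* (-1.01, adjusted p = 0.0077), *Hnrnpc* (-0.69), *Hnrnpu* (-0.96) and *Sf3b5* (-1.09) were lower (limma, GC-corrected log2 changes). For *Sf3b5* the transcript used has 3841 bases and 45.5% GC, while its coding sequence of 258 bases is 61.6% GC. The corrected value depends on that choice of transcript, whose effect was not tested. *Hnrnpu*, the scaffold-attachment factor of the nuclear matrix, and *Hnrnpc*, which binds uridine tracts, changed by 0.03 and 0.08 on the deposited values.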
